A study of Mus musculus with 12 samples.

Results

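TM3 cells were exposed to 1 mM methoxyacetic acid (MAA) for 3 h or for 24 h, and the difference between the response at 24 h and the response at 3 h is described here gene by gene. TM3 is a mouse line grown from Leydig cells of the testis of immature Balb/c mice. The response of a gene is the log2 ratio of its signal in MAA-treated cells to its signal in cells kept for the same time in culture medium without MAA, both read on one 2-color Agilent array. Of the 12 arrays of the study, which cover 1 mM and 5 mM MAA at 3, 8 and 24 h, 4 enter this comparison: 2 arrays at 1 mM for 3 h and 2 at 1 mM for 24 h. Each MAA-treated RNA was a pool of 3 cultures, and the second array of each pair used a separate MAA-treated pool and exchanged dyes, so that MAA-treated RNA carried Alexa 555 on the first array and Alexa 647 on the second. The first arrays of both times lay on one slide and the second arrays of both times on another, so a difference taken within a slide has the same dye on both sides. Of 41174 probes, 25862 gave a signal well above background in one or both channels of every one of the 4 arrays, and these probes, of which 15567 carry 1 of 11021 gene symbols, are the members of the comparison. The remaining 15312 probes were left out, 10502 of them above background on none of the 4 arrays and 1097 on 3 of the 4.

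Ethylene glycol monomethyl ether, a solvent that damages the testis, is oxidized in the body to MAA, which is known as an inhibitor of histone deacetylases. Leydig cells lie between the seminiferous tubules and make testosterone from cholesterol under the control of luteinizing hormone. A short exposure mainly catches genes whose transcription responds directly, whereas a long exposure also catches genes that respond to the products of the first ones. A ratio can differ between times because the treated cells changed, because the untreated cells changed during the same hours in culture, or both, and the single-channel signals are therefore given beside the ratios below.

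The Leydig cell label was checked against 8 markers. Star, Cyp17a1, Insl3 and Nr5a1 had member probes, Hsd3b1 was above background on 2 of the 4 arrays, and the cholesterol side-chain cleavage enzyme Cyp11a1, the testosterone-forming Hsd17b3 and the luteinizing hormone receptor Lhcgr were above background on none. The summed signal of the Leydig markers was 598 to 613 in the channels at 3 h and 862 to 945 at 24 h. In the same order, that of the Sertoli markers was 6400 to 8060 and 10500 to 12500. That of the fibroblast or peritubular markers was 279000 to 298000 and 348000 to 391000. In untreated cells, before scaling between arrays, the largest increase of the Leydig list was that of Insl3 (189 to 655). In the Sertoli list it was that of Wt1 (5710 to 10400). Cyp17a1 (56.4 to 73.4) and Star (72.3 to 100 and 63.9 to 64.6 on its 2 probes) moved less. The signal of Nr5a1 in untreated cells was 15.4 and 11.1, beside a 5th percentile of 16.9 among members. Different genes enter each sum, so the sums do not give shares of cell types and do not settle the label. Summed macrophage markers went from 869 to 969 at 3 h to between 2320 and 3070 at 24 h, in treated and untreated cells alike, and summed germ cell markers went from between 1480 and 1750 to between 648 and 878. Single genes carried the macrophage and germ cell sums, and others of the same lists went the other way. In untreated cells, before scaling between arrays, the mean signal of the macrophage genes Lyz2 (101 to 1160 on its brighter probe) and Cd14 (442 to 916) went up and that of Mrc1 (88.8 to 10.4) down, and that of the germ cell gene Ddx4 went down (1120 to 640) and that of Prm1 up (56.1 to 81.9). Of the member probes in all the marker lists, which also covered Sertoli, endothelial and fibroblast or peritubular cells, those called between the times were 2 of Acta2 in the fibroblast or peritubular list, which belong to the smooth muscle genes below. Among marker probes that were above background on only 2 of the 4 arrays, and so were not members, the ratio was higher at 24 h for one of the macrophage gene Adgre1 (difference 2.84, limma adjusted p = 0.0081) and one of the endothelial gene Cdh5 (2.03, limma adjusted p = 0.0404). In RNA of whole cultures, fewer cells of a type and less RNA per cell cannot be told apart. The channels of the 4 arrays had median signals between 52.7 and 91.9 and 62.3% to 70.3% of probes well above background, and between 131 and 208 outlier spots per array were left out.

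The response to 1 mM MAA was broader at 24 h than at 3 h in the number of probes that differed from untreated cells. The ratio was higher at 24 h than at 3 h for 396 member probes (252 symbols) and lower for 249 (108 symbols), 645 in all, by limma with Benjamini-Hochberg adjusted p under 0.05 over all probes. These are 1.53% and 0.963% of the members, beside a background of 1.17% higher and 0.675% lower, 1.85% in all, among every probe tested. The share of higher probes among those called was 61.4%, and it was 72.2% after normexp background correction and 78.5% with each array centred on its median, where 309 and 214 members were called. It was 54.5% with the deposited ratios and with members alone fitted, and 55.4% and 56.5% with the replicate number or the slide as a block. The study's thresholds for 1 mM, p under 0.005 and over 1.5-fold, gave 57% when put on the limma difference between times. Below, rose and fell are used of these probes for a ratio higher or lower at 24 h than at 3 h. The median difference was 0.81 on the log2 scale for the probes that rose and -0.76 for those that fell, against -0.01 for all members, and 147 of the former and 55 of the latter differed over 2-fold. The 2 arrays at 3 h did not overlap the 2 at 24 h for any of the 645 probes, but this also held for 54.9% of all members. With the replicate number as a block, which is the dye orientation on all 12 arrays and also the slide on the 4 compared here, 2443 members were called (1354 higher and 1089 lower, where the background was 3.74% and 2.86%, 6.6% in all), the 645 among them. The count depends strongly on single arrays: it was 160 without the first 3 h array, 57 without the second 3 h array, 34 without the first 24 h array and 40 without the second, and 0 when the 4 arrays were fitted alone (limma, unadjusted p under 0.05 for 3394 members). Because each time has 2 arrays of pooled cultures, and the sources used here do not say whether the untreated RNA of both arrays was one pool, these p-values measure the spread between pools and arrays.

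**Figure D1:**
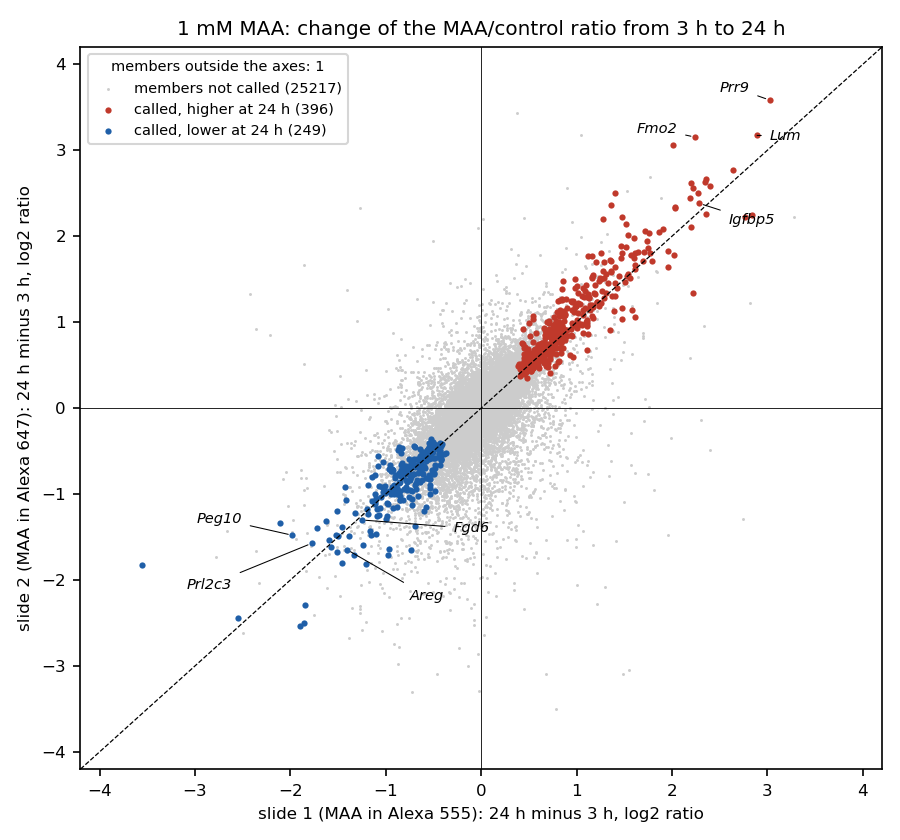
Change of the log2 MAA/control ratio from 3 h to 24 h at 1 mM on slide 1 (horizontal axis, MAA in Alexa 555) and on slide 2 (vertical axis, MAA in Alexa 647) for each member probe, 1 member lying outside the axes. The 396 probes called higher (red) and the 249 called lower (blue) have the same sign on both slides. Their choice by the mean of both slides favors this. Over all members the Pearson correlation of the slides is 0.638.

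The plot of slide 1 against slide 2 shows how far the change was shared by the separate pools. Across members, which are not independent of each other, the differences on the 2 slides had a Pearson correlation of 0.638, as a description. The pair of arrays at 24 h correlated at 0.594 and the pair at 3 h at 0.158, so the 3 h ratios, with a SD over members of 0.26 against 0.348 at 24 h, lay nearer to the noise between arrays. Arrays of different times on the same slide correlated at 0.526 on slide 1 and 0.289 on slide 2.

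Matrix, IGF and retinoid genes stood among the 12 largest increases. For lumican (Lum), a proteoglycan that organizes collagen fibrils, the log2 ratio was -0.56 and -0.92 after 3 h against 2.33 and 2.25 after 24 h. Its ratio was thus below that of untreated cells on both early arrays and above it on both late ones, a difference of 3.03 ± 0.24 (SE, 2 arrays per time), or 8.17-fold (limma adjusted p = 0.00324). For Igfbp5, a secreted binding protein of the insulin-like growth factors, the ratio was -0.80 and -0.76 after 3 h against 1.48 and 1.62 after 24 h. The times did not overlap, and the difference was 2.33 ± 0.13 (limma adjusted p = 0.00229). For Fam180a, a gene of little known function, the ratio was -0.92 and -0.81 after 3 h against 1.44 and 1.45 after 24 h, a difference of 2.31 ± 0.14 (limma adjusted p = 0.00229). Lum, Igfbp5 and Fam180a share a change of side, from lower than untreated cells early to higher late, and each was still called after any one of the 4 arrays was left out.

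Rarb encodes a retinoic acid receptor and is itself a classical target of retinoic acid. Its ratio was 0.08 and 0.31 after 3 h against 2.27 and 2.75 after 24 h, a difference of 2.31 ± 0.24 (limma adjusted p = 0.0081). Prr9, a proline-rich protein gene, had the largest increase of the named genes, with ratios of -0.20 and -0.94 after 3 h against 2.83 and 2.64 after 24 h and a difference of 3.30 ± 0.35. The arrays at 3 h were further apart for Prr9 than those at 24 h, and its call was lost without the second 3 h array or either 24 h array. The fibril-associated collagen Col14a1 (2.71 ± 0.41), the flavin-containing monooxygenase Fmo2 (2.70 ± 0.33), which oxidizes xenobiotics, the glycoprotein gene Cd52 (2.54 ± 0.27) and the clathrin-uncoating factor Dnajc6 (2.18 ± 0.23) also rose. Cd52 kept its call in 2 of the 4 fits that leave out 1 array, Fmo2 and Dnajc6 in 1, and Col14a1 in none. Speer4d and Gm9758, 2 members of a family of testis glutamate-rich proteins whose copies are nearly alike, had ratios near 0 at 3 h (0.04 and -0.17 for Speer4d) and of 2.39 and 2.46 for Speer4d at 24 h. Their differences were 2.49 ± 0.16 and 2.41 ± 0.16, both called in all 4 such fits, and signals of these copies may be shared between their probes.

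The 12 largest decreases are given by their level at 3 h. Some genes were near the level of untreated cells at 3 h and below it at 24 h. For Prl2c3, a proliferin of the prolactin family, the ratio was -0.17 and -0.24 after 3 h against -1.95 and -1.81 after 24 h, a difference of -1.67 ± 0.12 (limma adjusted p = 0.00273). Its neighbor in the family, Prl2c5, differed by -1.63 ± 0.18, and the 5 member probes of Prl2c genes differed by -1.50 to -1.67, although such similar transcripts may share signal. For Nr1h4, the bile acid receptor FXR, the ratio was 0.24 and 0.26 after 3 h against -0.95 and -0.97 after 24 h, a difference of -1.21 ± 0.08 (limma adjusted p = 0.00229). Ceruloplasmin (Cp, -1.27 ± 0.16), the phosphodiesterase subunit Pde6h (-1.24 ± 0.22) and the Golgi transport gene Golt1b (-1.17 ± 0.22) also fell. The imprinted gene Peg10 was already lower than in untreated cells at 3 h, at -0.54 and -1.29, and stood at -2.52 and -2.77 at 24 h, a difference of -1.73 ± 0.29.

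Other genes were above untreated cells at 3 h and had returned toward, or passed below, the untreated level by 24 h. Amphiregulin (Areg), a ligand of the EGF receptor, had ratios of 2.19 and 2.36 after 3 h against 0.78 and 0.72 after 24 h. It thus remained above untreated cells at both times while falling by 1.53 on the log2 scale (SE 0.16, limma adjusted p = 0.0081). For Sphk1, the kinase that forms sphingosine 1-phosphate, the ratio was 1.18 and 0.94 after 3 h against -0.42 and -0.60 after 24 h, a difference of -1.57 ± 0.13 (limma adjusted p = 0.0045). The Cdc42 exchange factor Fgd6 had ratios of 1.38 and 1.36 after 3 h against 0.12 and 0.06 after 24 h, a difference of -1.28 ± 0.08. The kinase gene Taok3 (-1.30 ± 0.17) and Nol4 (-1.19 ± 0.20) also went from above the untreated level at 3 h to near or below it. Of the 12 named decreases, Prl2c3, Nr1h4 and Fgd6 kept their call whichever array was left out, Sphk1 did so in 3 of 4 fits, Areg and Prl2c5 in 1, and Peg10, Taok3, Cp, Pde6h, Nol4 and Golt1b in none. With the slide as a block, Nol4 and Golt1b were no longer called (limma adjusted p = 0.0572 and 0.0608).

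**Figure D2:**
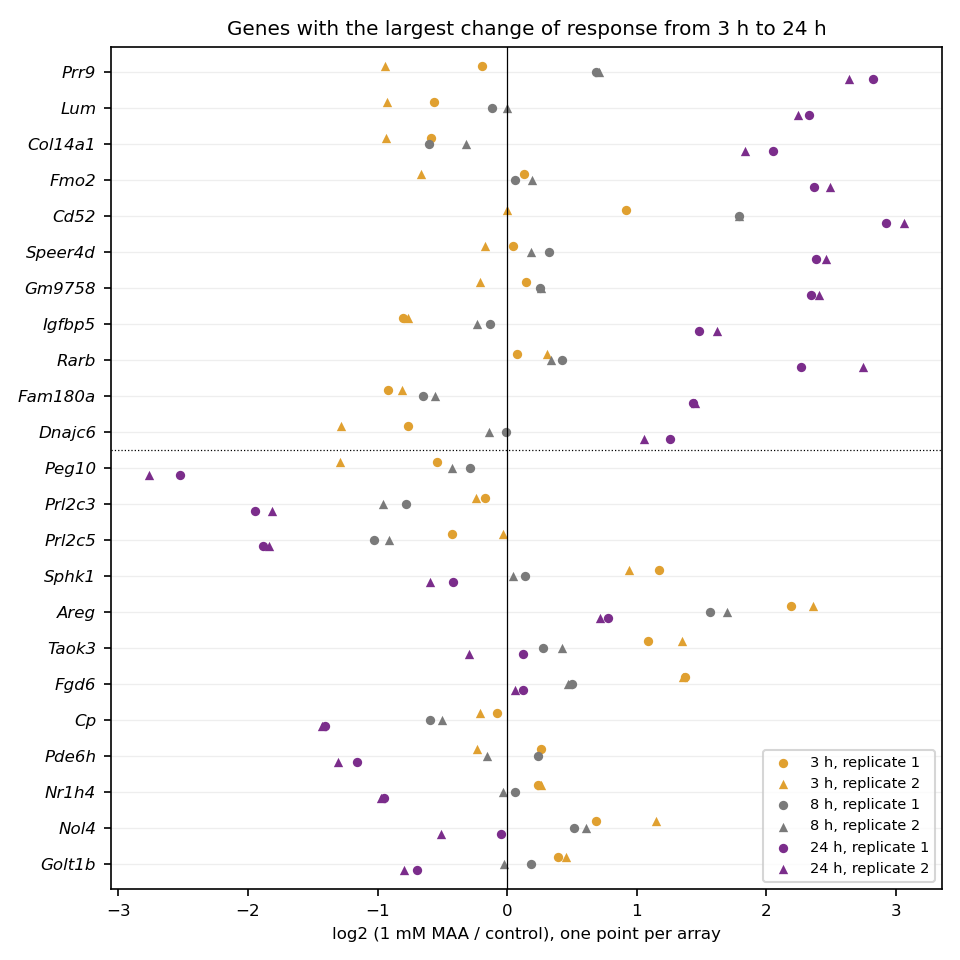
Log2 MAA/control ratio at 1 mM on each array at 3, 8 and 24 h for 11 of the 12 genes with the largest increase and the 12 with the largest decrease. Lum runs from -0.56 and -0.92 at 3 h to 2.33 and 2.25 at 24 h, Areg from 2.19 and 2.36 to 0.78 and 0.72.

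The called probes were also set against untreated cells one time at a time. The thresholds were those of the study at 1 mM, p under 0.005 and a change over 1.5-fold. They were put here on unadjusted limma p-values, whereas the study took p-values of an error model for the combined dye swaps. By them 675 members differed at 3 h (464 above and 211 below) and 1392 at 24 h (952 above and 440 below). The background over all probes was 1.95% and 4.68%. Of the 396 probes that rose, 259 passed these thresholds only at 24 h, above untreated cells, 34 only at 3 h, below them, 6 passed below at 3 h and above at 24 h, 11 were above at both times, and 86 passed at neither. Of the 249 that fell, 75 passed only at 24 h, below untreated cells, 59 only at 3 h, above them, 3 went from above to below, 5 were above at both times, 1 below at both, and 106 passed at neither. These counts use the ratios that chose the called probes and are given as a description. The intermediate arrays at 8 h had no part in the contrast, though their controls and spread enter the fit. The 8 h mean lay between the 3 h and 24 h means for 332 of the 396 probes that rose. The same held for 210 of the 249 that fell. The 8 h mean was nearer to the 3 h than to the 24 h mean for 274 of the former and 155 of the latter. The called probes were chosen for 3 h and 24 h means that lie far apart, which favors an 8 h mean between them. Over all members the 8 h ratios had a median of -0.02 and a SD of 0.274. The share of members with an 8 h mean between the others was not computed, so nothing is read from these counts. Median ratios of the probes that rose were -0.06 at 3 h, 0.17 at 8 h and 0.78 at 24 h, and those of the probes that fell 0.30, 0.04 and -0.46.

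Many of the differences in ratio came with large changes in the untreated cells. Single-channel signals, on a log2 scale made comparable between arrays by quantile normalization of average intensity, are given for description without a test. Among the 396 probes that rose, the treated channel moved further from 3 h to 24 h than the untreated one for 268 and the untreated one further for 128, and the median change was 0.90 in treated and 0.07 in untreated cells. Both channels went up for 212 of them, both down for 79, and the treated up with the untreated down for 105. Among the 249 that fell, the medians were -0.41 in treated and 0.38 in untreated cells, and the untreated channel moved further for 123. Both channels went up for 74, both down for 81, and the treated down with the untreated up for 94. The SD of the change over all members was 0.788 in treated and 0.752 in untreated cells.

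**Figure D3:**
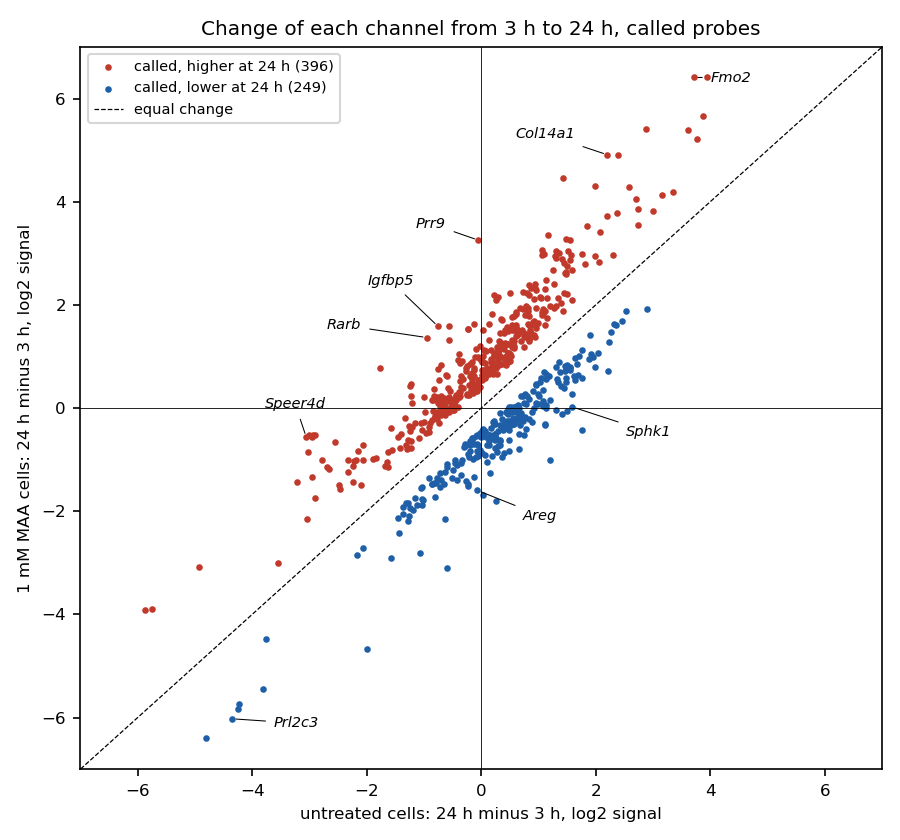
Change of the single-channel log2 signal from 3 h to 24 h in untreated cells (horizontal axis) and in cells with 1 mM MAA (vertical axis) for the 396 probes called higher (red) and the 249 called lower (blue). Distance from the dashed line of equal change is the change of the ratio, and probes lie in all quadrants, from Fmo2 (6.41 in treated, 3.71 in untreated cells) to Prl2c3 (-6.03 and -4.35).

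Named genes illustrate each case. The Fmo2 signal in treated cells was 4.97 and 4.98 after 3 h against 11.4 and 11.4 after 24 h, a change of 6.41, while that in untreated cells changed by 3.71, so it increased in both and further with MAA. Lum (4.47 in treated and 1.44 in untreated cells), Col14a1 (4.91 and 2.20), Cd52 (5.41 and 2.88) and Fam180a (4.30 and 1.99) had the same form. Igfbp5 (1.58 and -0.75) and Rarb (1.37 and -0.95) went up in treated cells and down in untreated ones, whereas for Prr9 the change lay in the treated cells (3.25 and -0.05). Speer4d went from 8.75 and 8.90 to 5.84 and 5.70 in untreated cells and changed by only -0.57 in treated ones, so that its higher ratio at 24 h accompanied a loss of signal without MAA. Prl2c3 lost 4.35 in untreated and 6.03 in treated cells, from 16.1 and 16.3 at 3 h to 11.9 and 11.9 at 24 h without MAA. Sphk1 had the reverse form, with no change in treated cells (0.02) and an increase of 1.59 in untreated cells. Wnt4, whose ratio rose as given below, went down in both, with changes of -1.576 in treated and -2.462 in untreated cells. Areg changed by -1.60 in treated and -0.07 in untreated cells. Some of these signals were weak, and the folds of such genes rest on them. On this log2 scale Areg stood at 3.946 to 4.255 in untreated cells, and at 4.73 and 4.89 in treated cells at 24 h. Untreated cells stood at 3.68 and 3.30 for Rarb at 24 h and at 3.28 and 4.37 for Cd52 at 3 h. Signals of other named genes were as low, such as Nol4 in untreated cells at 3 h (4.16 and 3.74). In treated cells, Col14a1 (4.33 and 4.53) and Lum (4.83 and 4.81) at 3 h and Peg10 (4.32 and 4.37) at 24 h were further cases.

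Extracellular matrix genes were among those that rose. Of 51 member probes for collagens and matrix proteins, 8 rose and none fell, and the list's median difference was 0.24. Over all members the median was -0.01, with 1.53% called higher and 0.963% lower. Besides Lum and Col14a1, the 7 genes were the proteoglycans decorin (Dcn, 1.34 ± 0.22) and fibromodulin (Fmod, 0.82), tenascin C (Tnc, 1.18 ± 0.16), the fibrillar collagen Col3a1 (0.67) and fibulin 1 (Fbln1, 0.63 and 0.60 on its 2 probes). For Dcn the ratio was -0.10 and -0.40 after 3 h against 1.05 and 1.11 after 24 h, with no overlap. The count was 15 with the replicate block and 1 to 2 when 1 of the 4 arrays was left out. Of 34 probes of matrix proteases and their inhibitors, the stromelysin Mmp3 rose and Mmp19 (-0.78) and Adamts4 (-0.73) fell, with a list median of -0.01. Mmp3 had ratios of -0.03 and -0.13 after 3 h against 1.58 and 1.49 after 24 h, a difference of 1.61 ± 0.11 (limma adjusted p = 0.00241) that was called whichever array was left out. Its signal went down in both channels, by 2.96 without MAA and by 1.34 with it.

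Over all members, 1.53% of probes were called higher. Contractile actin cytoskeleton genes that are targets of serum response factor rose in 6 of 23 member probes, with none lower (median 0.30). They were smooth muscle actin (Acta2, 1.48 ± 0.23 and 0.81 ± 0.11 on 2 of 3 probes, 0.15 and not called on the third), the skeletal and cardiac actins Acta1 (1.04) and Actc1 (0.90), transgelin (Tagln, 0.80) and calponin (Cnn1, 0.74). The Acta2 probe with the larger difference had ratios of 0.13 and -0.22 after 3 h against 1.498 and 1.364 after 24 h. The actin transcripts are much alike and their probes may share signal. The count was 9 with the replicate block and 0 to 1 with 1 array left out.

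Growth factor genes were read in 4 lists, beside 1.53% called higher and 0.963% lower over all members. In the IGF list, 3 of 12 probes rose, Igfbp5 and both probes of the ligand Igf2 (1.64 ± 0.23 and 1.34 ± 0.19), with a median of 0.36. For the first Igf2 probe the ratio was 0.12 and -0.33 after 3 h against 1.59 and 1.47 after 24 h. Among 29 probes of EGF, PDGF and other growth factor ligands and of some of their receptors, none rose and 5 fell. All 5 were probes of ligands: Areg, the fibroblast and epithelial mitogens Fgf7 (-0.87 ± 0.11) and Hgf (-0.85 ± 0.15), the lymphatic growth factor Vegfc (-0.77 ± 0.09) and epiregulin (Ereg, -0.62 ± 0.09). Fgf7 had ratios of -0.16 and -0.21 after 3 h against -0.97 and -1.15 after 24 h, and its signal went up in both channels, by 1.91 without MAA and by 1.04 with it. One probe of Kit ligand (Kitl) had a difference of -1.55 but ratios of 0.28 and 1.34 on the 2 early arrays, and was not called (limma adjusted p = 0.161). With either block 6 probes of this list fell and 2 rose, and with 1 array left out 0 to 2 fell. The count of the IGF list was 4 with the replicate block and 1 to 2 with 1 array left out, and no difference between the lists was tested. Of 21 TGF-beta, BMP and activin probes, the decoy receptor Bambi rose (0.60 ± 0.09), and of 23 hedgehog and WNT probes, Wnt4 (0.89 ± 0.12), with 4 and 3 increases in these lists under the replicate block and none with an array left out.

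Interferon-inducible and antigen-presentation genes mostly had positive differences. Over all members, 1.53% of probes were called higher and 0.963% lower. Of 44 interferon-inducible probes, 6 rose and none fell, with a median of 0.28. Among them were the GTPase Iigp1 (1.74 ± 0.23), the antiviral Ifit1 (1.70 ± 0.19) and Ifit3 (0.79) and the chemokine Cxcl10 (0.59). Ifit1 went from -1.18 and -1.34 at 3 h to 0.52 and 0.37 at 24 h. It was thus below untreated cells early and above them late, while Cxcl10 was above them at both times (0.96 and 0.73, then 1.40 and 1.47). The count was 16 with the replicate block and 0 to 2 with 1 array left out, and Ifit3 and Cxcl10 were not called with the slide as a block (limma adjusted p = 0.0554 and 0.0509). Of 18 MHC and antigen-processing probes, the invariant chain Cd74 rose, from 0.07 and -0.06 to 1.65 and 1.72 (difference 1.68 ± 0.18), and the immunoproteasome subunit Psmb10 fell (-0.60). The median of that list was 0.33, and 9 probes were higher with the replicate block. Among 25 chemokine and cytokine probes, 2 rose and 4 fell, with a median of -0.19 (4 and 7 with the replicate block). The alarmin Il33 rose, from -0.14 and -0.14 to 0.99 and 1.14 (difference 1.21 ± 0.08, limma adjusted p = 0.00241), and was called without any of the 4 arrays. The Il33 signal went down in both channels, with a change of -1.019 in treated and -2.225 in untreated cells. The chemokines Ccl9 (-0.81 ± 0.13) and Ccl11 (-0.65 ± 0.12) fell, as did both probes of Tnfsf11, the RANK ligand (-0.75 and -0.68). The ratio of the first Tnfsf11 probe stood at 0.95 and 1.10 at 3 h and at 0.28 and 0.26 at 24 h. Summed macrophage markers went up from 3 h to 24 h in both channels, as given above, and their part in these lists was not tested. None of their 4 member probes was called, and the median difference was 0.49. Both Lyz2 probes (0.74 and 0.635, limma adjusted p = 0.0646 and 0.0545) and Mrc1 (0.34) were above 0, and Cd14 (-0.14) was below. With the replicate block 2 of the 4 were higher, and with the slide block 1.

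Circadian clock genes included 4 increases among 26 member probes, with none lower and a median of 0.14, where 1.53% of all members rose. Hlf, an output transcription factor of the clock, had ratios of -0.41 and -0.26 after 3 h against 0.75 and 0.81 after 24 h, a difference of 1.12 ± 0.11 (limma adjusted p = 0.00655). The nuclear receptor Nr1d2, a repressor of the clock loop, went from -0.39 and -0.34 to 0.42 and 0.42 (0.79 ± 0.07), Bhlhe40 differed by 0.73 ± 0.12 and the negative regulator Per2 by 0.50 ± 0.08. For Per2 the 8 h ratios were -0.34 and -0.48, outside the range between its 3 h (0.24 and 0.21) and 24 h (0.71 and 0.73) values. With the replicate block 7 probes rose and 1 fell, and with 1 array left out 0 to 2 rose.

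Within the lists of histones and chromatin enzymes, the called probes were of core histones. Over all members 1.53% were called higher and 0.963% lower. Genes outside these lists are not covered, such as L3mbtl3, which fell (-1.115, limma adjusted p = 0.00329). Of 23 core histone probes, 5 rose and none fell, with a median of 0.30: H3c1 (0.85 ± 0.13), H2bc1 (0.74), H2bc12 (0.72), H2bc14 (0.67) and H2ac4 (0.49). H2bc12 went from 0.02 and 0.06 at 3 h to 0.76 and 0.77 at 24 h. Histone genes of a type are near copies of each other, so these probes may share signal, and the count of 5 became 10 with the replicate block and 0 with any one array left out. No probe was called among 11 linker histone probes (median 0.23, 3 higher with the replicate block) or among 37 of histone deacetylases and chromatin enzymes (median 0.01, 1 higher and 1 lower with the replicate block), and the kinds were not tested against each other.

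Lists of steroid, lipid and redox metabolism held 0 to 2 called probes each, where 2.49% of all members were called. None of 20 steroidogenesis and Leydig function probes was called (median 0.03), and 1 was higher with the replicate or the slide block. The steroid acute regulatory protein Star differed by -0.54 ± 0.23 on one probe and by -0.01 ± 0.14 on the other, and Cyp17a1, which makes androgens from progestins, by 0.22 ± 0.20. Of 37 cholesterol synthesis and uptake probes, the sterol sensor partner Insig1 rose (0.66 ± 0.09, limma adjusted p = 0.0169) and the isomerase Ebp fell (-0.56 ± 0.09). With the replicate block 8 were higher and 1 lower in this list, whose median was 0.14. Of 38 probes for fatty acid use and PPAR targets, the fatty acid carrier Fabp4 rose (0.61 ± 0.11) and the lipase inhibitor Angptl4 fell, from -0.24 and -0.28 to -1.03 and -1.01 (-0.76 ± 0.09). Of 37 glutathione and oxidative stress probes, 1 of the peroxidase Gpx1 fell (-0.81 ± 0.09) from 0.04 and -0.01 to -0.83 and -0.76. Another Gpx1 probe differed by 0.22 and was not called (limma adjusted p = 0.881). With the replicate block 5 probes of this list fell. Of 13 prostaglandin probes, the synthase Ptgds rose (1.12 ± 0.13).

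Lists of early signaling, proliferation and stress held 0 to 3 called probes each, beside the same 2.49% of all members. With lists of this size, a count of 0 or 1 is near that share. Among 26 immediate early transcription factor probes, Jun (0.77 ± 0.12) and Klf10 (0.46 ± 0.09) rose and none fell, while the list's median was -0.11, and with the replicate block 2 rose and 4 fell. Jun had ratios of 0.25 and -0.01 after 3 h against 0.94 and 0.83 after 24 h. None of 17 ERK feedback regulators was called (median -0.17), nor any of 41 DNA replication and mitosis probes (median -0.02), 26 of cell cycle inhibitors and D-type cyclins (median -0.13) or 19 of the BCL2 family (median 0.01). The same held for 28 protocadherin probes (median 0.02) and for 8 probes of genes assayed by qPCR in these cells (median 0.08), where the largest value was that of one Abca9 probe (0.49 ± 0.21). Of 27 phosphatidylinositol and calcium signaling probes, 3 rose, each a probe of the kinase subunit Pik3r3 (0.62 to 0.77). Of 31 heat shock and endoplasmic reticulum stress probes, the stress factor Ddit3 rose (0.59 ± 0.08), and 6 rose and 1 fell with the replicate block. Of 24 nuclear hormone receptor probes, that of Rarb rose. The receptor list leaves out Nr1h4, which fell (-1.21, called in all 4 fits that leave out 1 array), and Nr1d2, which rose. Of the genes called in these signaling, stress and receptor lists and in the metabolic ones, Rarb (2 of 4 fits) and Ptgds (1) were the only ones still called when single arrays were left out.

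**Figure D4:**
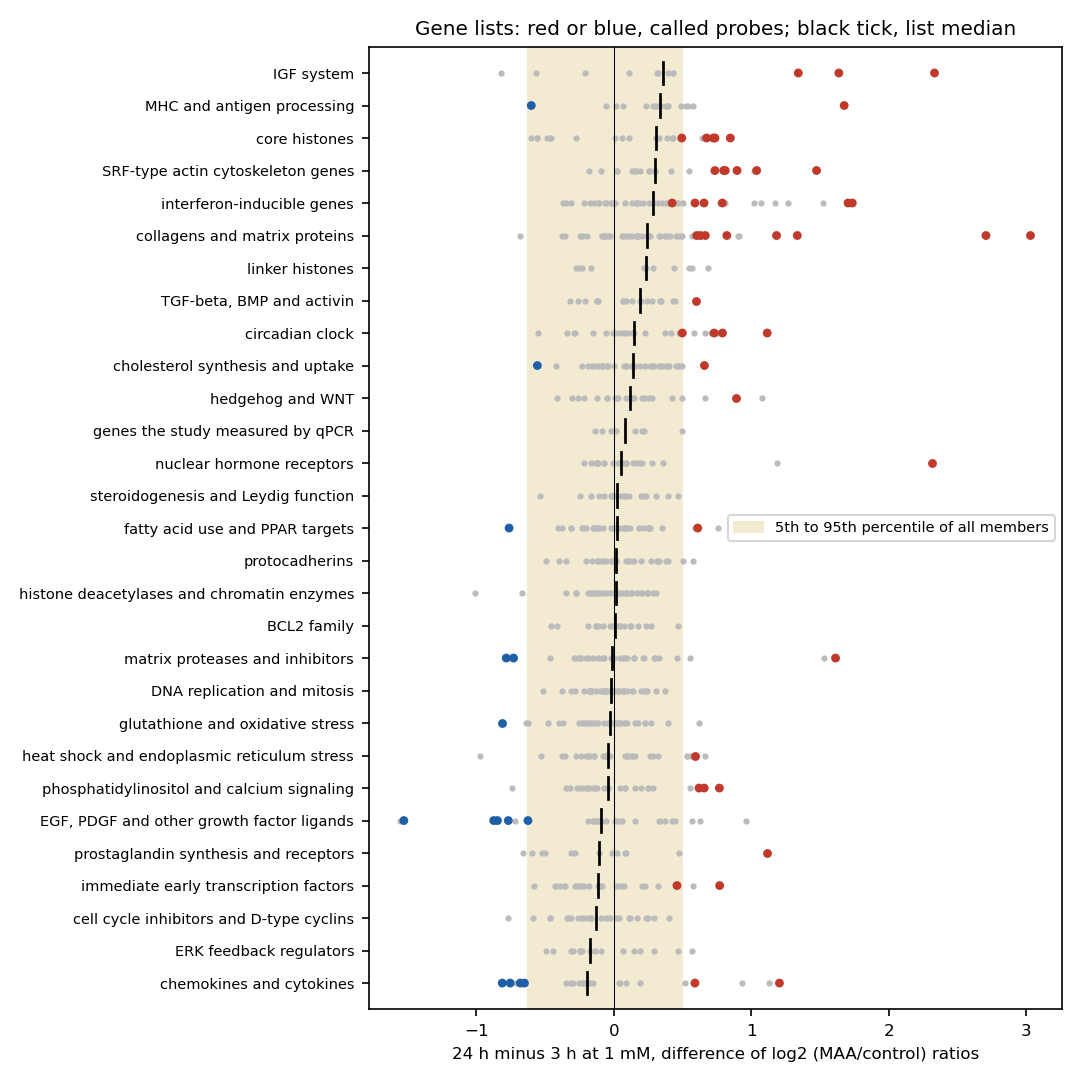
Difference of the log2 MAA/control ratio between 24 h and 3 h at 1 mM for the member probes of each gene list, with called probes in red (higher) or blue (lower), a black tick at the list median and the 5th to 95th percentile of all members shaded. List medians run from -0.19 for chemokines and cytokines to 0.36 for the IGF system.

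Cells with 5 mM MAA changed differently between 3 h and 24 h for a number of these genes. The question was whether the difference between times itself differed between the concentrations, and it was tested in the same fit as the 1 mM difference minus the 5 mM difference. That test called 521 members, 207 with a larger value at 1 mM and 314 with a smaller one, where the background over all probes was 0.549% and 0.85%, 1.4% in all. The replicate block gave 2357 (background 6.22%), and leaving out 1 of the 4 arrays at 1 mM 26 to 85, lowest without the first 24 h array and highest without the second 3 h array. Of the 645 probes called for time at 1 mM, 109 were called in this test too, 73 that rose and 36 that fell, although the 1 mM difference is part of both tests. The second 5 mM arrays lay on another slide than the second 1 mM arrays. For 61 of the 109 the 5 mM difference had the opposite sign. The choice of the 109 by both tests favors opposite signs. Their share among all members was not computed, so nothing is read from this count. For 25 of the 61 the 5 mM difference was called, where 8.39% of all probes were higher and 7.42% lower at 24 h with 5 mM.

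Mmp3 showed the opposite sign in the clearest form. At 1 mM its mean ratio went from -0.08 at 3 h to 1.53 at 24 h, and at 5 mM from -0.17 to -1.99, so that the differences were 1.61 and -1.82 and their gap 3.43 ± 0.16 (limma adjusted p = 0.0019). Fam180a went from -0.87 to 1.44 at 1 mM and from -2.22 to -2.58 at 5 mM, a gap of 2.67 ± 0.20 (limma adjusted p = 0.00522). Tnc differed by 1.18 at 1 mM and by -1.44 at 5 mM, and Bambi by 0.60 and -0.98. Epiregulin differed by -0.62 and 1.17, and amphiregulin by -1.53 and 0.39, since its mean ratio of 2.91 at 3 h stood at 3.30 at 24 h with 5 mM. Nol4 (-1.19 and 0.75) had the sign pattern of these EGF-type ligands. Gm9758 rose at both concentrations, by 2.41 and 1.01, as did Speer4d, by 2.49 and 1.13. The call for the gap held in all 4 fits without 1 of the 1 mM arrays for Mmp3, Fam180a, Ereg and Bambi, in 3 for Tnc, and in none for Areg, Nol4, Gm9758 and Speer4d.

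**Figure D5:**
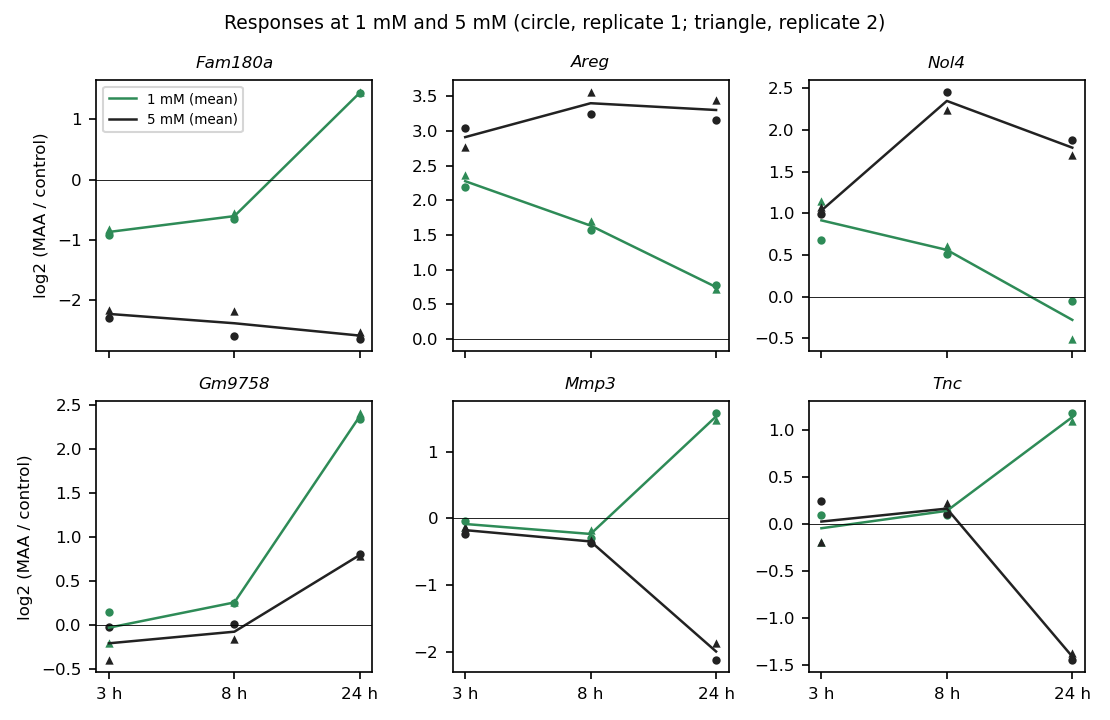
Log2 MAA/control ratio on each array at 3, 8 and 24 h with 1 mM and with 5 mM MAA for Fam180a, Areg, Nol4, Gm9758, Mmp3 and Tnc, with the times drawn evenly spaced and a line through the means of 2 arrays. At 24 h Mmp3 stands at 1.58 and 1.49 with 1 mM and at -1.87 and -2.12 with 5 mM.

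For 11 of the 645 called probes the treated or the untreated channel did not rise well above background on any array of a time, so that a fold there is only a limit. The limit sets the mean of the brighter channel against the higher of the dim probe's own signal and the lowest signal well above background on the array. At 24 h the class I MHC gene H2-Bl was at least 2.34-fold, the tetraspanin Tspan33 at least 3.49-fold and the transaminase-like Got1l1 at least 1.68-fold higher in MAA-treated than in untreated cells. At 3 h both channels were measured for each of these genes, with a log2 ratio of 0.28 for H2-Bl, 0.54 for Tspan33 and 0.15 for Got1l1. All 3 were called higher at 24 h (limma adjusted p = 0.0283, 0.00536 and 0.0469). From 3 h to 24 h the mean log2 H2-Bl signal went from 8.21 to 4.29 in treated and from 7.93 to 2.06 in untreated cells. In the same order Got1l1 went from 4.81 to 3.81 and from 4.66 to 1.88. Tspan33 went from 4.475 to 4.94 in treated and from 3.93 to 2.71 in untreated cells.

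Promoter sequences of RefSeq (build GRCm38.p6, 250 bases before to 50 after each start) were searched on both strands for 6 motifs, as a description. Of the genes that rose, 184 of 252 had an entry, of those that fell, 86 of 108, and of all member genes, 8836 of 11021. The GC box GGGCGG was present in 53.3% of the genes that rose, 59.3% of those that fell, 66.8% of member genes and 38.2% of all 27025 genes of the table. The AP-1 motif TGANTCA was in 9.24%, 15.1%, 6.61% and 8.97%, in the same order, and the E-box CACGTG in 13.6%, 5.81%, 11.5% and 8.09%. The cAMP response element TGACGTCA was in 1.63%, 3.49%, 3.34% and 2.03%, the EGR-type motif GCGNGGGCG, which can overlap a GC box, in 10.3%, 11.6%, 11.7% and 6.27%, and the interferon-type motif, a pair of TTTC with 2 bases between, in 5.98%, 4.65%, 3.86% and 3.99%. The promoters of Areg, which fell, and Hlf, which rose, are shown because they belong to a gene of either direction and both hold a full TGACGTCA beside GC boxes. They are written 5′ to 3′ on the strand of the gene, with the motifs in capitals (CCGCCC is the GC box on the other strand). The Areg promoter is chr5:91139349-91139648 on the plus strand and the Hlf promoter chr11:90390868-90391167 on the minus strand.
Areg: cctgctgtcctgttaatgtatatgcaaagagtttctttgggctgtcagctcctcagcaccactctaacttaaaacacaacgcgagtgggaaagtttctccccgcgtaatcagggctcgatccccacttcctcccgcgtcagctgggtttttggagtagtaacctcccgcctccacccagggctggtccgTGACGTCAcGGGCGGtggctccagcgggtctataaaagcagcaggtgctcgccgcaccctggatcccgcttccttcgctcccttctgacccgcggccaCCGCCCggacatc
Hlf: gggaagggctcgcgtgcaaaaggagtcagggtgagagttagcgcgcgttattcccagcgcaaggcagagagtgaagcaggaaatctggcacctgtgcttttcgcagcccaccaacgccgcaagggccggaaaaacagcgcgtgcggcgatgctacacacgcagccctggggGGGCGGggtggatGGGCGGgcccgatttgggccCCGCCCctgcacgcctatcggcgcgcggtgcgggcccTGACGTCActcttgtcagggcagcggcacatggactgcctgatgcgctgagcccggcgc
In Areg the TGACGTCA begins 61 bases and a GC box 52 bases before the start. In Hlf the TGACGTCA begins 9 bases before the start and the GC boxes 79, 66 and 46 bases before it. A match of letters is not evidence that a factor binds there, and the data hold no measurement of binding.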

How the data were processed

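Per the labels and the study's methods, amino-allyl RNA labeled with Alexa 555 and Alexa 647 was hybridized to whole-genome mouse 60-mer arrays, MAA-treated against untreated RNA of the same time. The authors used Agilent Feature Extraction 9.5.3.1 with linear and LOWESS normalization, and the deposited scanner output holds the background-subtracted, dye-normalized intensity of each channel, which is the unit used here. The deposited table of each array holds log10 ratios, already turned to MAA over control, and served as an alternative.

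Of 45018 spots per array, 1639 controls and spots marked as outliers were left out, and log2 ratios of the processed signals were averaged per probe (41174) without centring or pseudocount. A symbol was assigned to 22147 probes, 22072 through an accession of the RefSeq table. A probe was a member if at least 1 channel was well above background on all 4 arrays at 1 mM for 3 and 24 h. All 12 arrays were fitted with limma 3.58.1 in R 4.3.3, with a coefficient for each condition, 6 degrees of freedom left for the residuals and 1.515 from the prior, and p-values were adjusted by Benjamini-Hochberg over all probes. Array numbers limit the precision, with a median SE of 0.14 over members. Named genes are the 12 largest increases and 12 largest decreases among called members with a symbol, the same sign on both slides and each treated and untreated channel of both times above background on at least 1 array, plus up to 4 called members per list, or the 2 of largest size where none was called. Some genes that this rule names are not reported here. The members, gene lists and tests were chosen with earlier results of these data known. Alternatives were normexp background correction (offset 50) with loess, the deposited log10 ratios, centring of each array, members alone, and both channels above background. Further ones were outlier spots kept, replicate or slide as a block, 1 probe per symbol, fewer arrays, and each array left out. The study's thresholds, put on the limma difference between times, were another.

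The replicate number marks the dye orientation in the labels, and deviations of same-numbered arrays from their condition means correlated at 0.075 to 0.515 over the pairs of conditions, 0.496 for 1 mM at 3 h and 24 h. The fitting code was checked on simulated ratios with known changes.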

Additional observations from a re-analysis of the deposited data

Results flagged for a closer look

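The change between 3 h and 24 h differed between 1 mM and 5 mM MAA for 521 members by the limma contrast of the differences (adjusted p under 0.05), where 1.4% of all probes were called. The 1 mM difference minus the 5 mM difference was called for 6 of the 24 genes with the largest changes at 1 mM. These genes were chosen by the 1 mM difference, which is part of this contrast and favors calls, so nothing is read from that count. On the log2 scale it was 2.67 ± 0.20 (SE) for Fam180a, 1.40 ± 0.22 for Gm9758 and 1.35 ± 0.23 for Speer4d, and -2.37 ± 0.42 for Peg10, -1.95 ± 0.28 for Nol4 and -1.92 ± 0.22 for Areg. Among called genes of the lists it was 3.43 for Mmp3, 2.62 for Tnc, 1.58 for Bambi, 0.75 for Il33 and 0.65 for Ddit3, and -1.80 for Ereg and -1.17 for Ccl11. Without single arrays at 1 mM these calls held in 4 of 4 fits for Fam180a, Mmp3, Ereg and Bambi and in 3 for Tnc. In none of these fits were the other genes named here called. What sets the genes apart was not tested.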

How the results depend on the processing

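The number of members called for time moved with the processing: 645 (396 higher, 249 lower) became 309 (223 and 86) with normexp and loess, 1948 (1061 and 887) with the deposited log10 ratios, 214 (168 and 46) with each array centred on its median, 2039 (1112 and 927) with members alone fitted, 2443 (1354 and 1089) with the replicate block and 1302 (736 and 566) with the slide as a block. Fitting the 6 arrays at 1 mM, or the 4 arrays of the comparison, alone gave 0, 0 higher and 0 lower (unadjusted p under 0.05 for 4162 and 3394 members), which leaves few degrees of freedom. The study's thresholds, put on the limma difference between times, gave 921, 396 of them lower. Leaving out 1 array gave 34 to 160 (23 to 108 higher, 11 to 52 lower). The 645 were all called again with the deposited ratios, members alone and the replicate block, 603 of them with the slide as a block, 227 with normexp and 207 with centring. The share of higher calls was 61.4%, 72.2% with normexp, 78.5% with centring, and 54.5% to 57% with the deposited ratios, members alone, either block and the study's thresholds. Calls for the difference between concentrations were 521, and 1232 with normexp, 1892 with the deposited ratios, 63 with centring, 1826 with members alone, 2357 with the replicate block, 1003 with the slide as a block and 26 to 85 with 1 array left out. The cause of these shifts was not tested. For the 24 named genes, 264 recomputed differences kept their direction and side of the threshold and 112 lost the call, none reversing. All 24 genes lost the call when the 6 or the 4 arrays at 1 mM were fitted alone. With normexp and loess 10 of the 24 lost it. Among other named list genes, 4 uncalled values reversed: Pcdh15 (-0.028 to 1.18 with 1 array left out, below 0 without the second 24 h array) and Prm1 (-0.17 to 0.13 with 1 array left out, above 0 without the second 3 h or the first 24 h array, and 0.0011 with centring). Signals near background limit weakly expressed genes: the members' 5th percentile was 16.9 and their median 776.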

Other observations

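The called genes below lie outside the lists and were chosen after their values were seen, so no test is attached to them as groups, and 2.49% of all members were called. Of 10 member probes of troponin genes of striated muscle, 3 rose and 7 were not called (median of all 10, 0.28), 2 of the former of slow troponin I (Tnni1, 2.00 ± 0.16 and 1.90 ± 0.18) and 1 of cardiac troponin T (Tnnt2, 1.75 ± 0.17). Single probes that rose were those of the myosin chaperone Unc45b (1.89 ± 0.20) and the myosin-binding protein Mybpc3 (1.26 ± 0.20). Tnni1 went from 0.11 and 0.12 at 3 h to 2.02 and 2.21 at 24 h on its first probe. Genes of AMPA-type glutamate receptors also rose, 3 probes of Gria4 (1.54, 1.32 and 1.00) and 1 of Gria1 (1.32), and their signal in untreated cells changed by -2.15 to -2.69. Of the retinoid pathway, the retinaldehyde reductase Dhrs3 rose with Rarb (1.17 ± 0.14), while the retinol dehydrogenase Rdh10 (-0.57 ± 0.08) and the retinaldehyde dehydrogenase Aldh1a1 (-0.83 ± 0.15) fell.

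Single genes known from complement or lysosomes rose too, while others did not pass the test, such as complement C3 (0.12 and 0.10) and the lysosomal Psap (0.08 and 0.04) and Fuca1 (-0.28 and -0.29). Clusterin (Clu) stood at 0.36 and 0.22 at 3 h and at 1.96 and 1.96 at 24 h (1.67 ± 0.13), and C4b differed by 1.36 ± 0.16. The lysosomal enzymes Dpp7 (0.76 and 0.62), Ctsb (0.70), Ctsl (0.54) and Neu1 (0.43) differed by less. The chitinase-like Chil1 rose by 2.15 ± 0.15, from -0.30 and -0.27 to 1.91 and 1.83. For the peptidoglycan recognition gene Pglyrp3 (1.84 ± 0.10) the signal changed by -4.93 in untreated and -3.09 in treated cells, and Prl3d2, of the prolactin family like the Prl2c genes, fell (-0.71 ± 0.10).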
